A study of Mus musculus with 3 samples.

Results

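Bone marrow progenitors that carry null alleles of Tcf7, which encodes the transcription factor TCF-1, were set against all-lymphoid progenitors (ALP) to describe which genes of early innate lymphoid cell (ILC) progenitors were present without TCF-1 and which lymphoid genes were lost. The cells were 331 of the 716 barcodes of the ILCpro_KO library and 685 of the 812 barcodes of the ALP library, together 1016 of the 3362 barcodes of the series. Cells were selected on their own counts: a cell was kept with at least 500 detected genes, at most 10% of its UMIs (unique molecular identifiers, 1 per captured transcript) from mitochondrial genes, and few UMIs from 20 genes of other lineages. These sums were at most 1 for Cd3d, Cd3e and Cd3g, at most 1 for Cd79a and Cd79b, at most 4 for Lyz2, S100a8 and S100a9, at most 4 for Elane, Mpo, Prtn3 and Ctsg, at most 2 for Prss34 and Mcpt8, at most 4 for Hba-a1 and Hbb-bs, and at most 2 for Cd74, H2-Aa, H2-Ab1 and H2-Eb1. Differences in those 20 genes were set by the choice of cells and are not results.

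All 3 libraries of the series were made from cells sorted from bone marrow of C57BL/6 mice, with the 10x Chromium v2 chemistry, which reads the 3' ends of transcripts. ALP cells came from Tcf7EGFP/+ mice and were lineage negative (Lin-), Kit+, 2B4+ and IL-7Ra+, with high Flt3 and without the integrin a4b7. ILCpro_KO cells came from Tcf7EGFPnull/- mice and were Lin-, Kit+, 2B4+, positive for a4b7 and positive for Tcf7, which the label writes as Tcf7+. ILCpro_WT cells were sorted by that gate from Tcf7EGFP/+ mice, and 1627 of their 1834 barcodes passed the same rule and are given beside as a reference. ALP and ILCpro_WT thus both carried 1 EGFP allele and 1 wild-type allele, and every library came from a reporter strain. ILCpro_KO differed from ALP in genotype, in gate and in library, and these cannot be told apart in that comparison. Neither the age nor the number of mice is given in the labels, and each group is 1 library.

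ILCs are tissue lymphocytes without rearranged antigen receptors. They arise in the bone marrow from lymphoid progenitors that switch off the genes for making B and T cells while a set of transcription factors is switched on: Nfil3, Tox, Id2, Gata3, and later Zbtb16, whose product PLZF marks ILC precursors. Id2 binds E proteins, the factors that drive Dntt, Rag1 and Rag2 for antigen receptor rearrangement, and keeps them off DNA. TCF-1 is an HMG-box protein, closely related to LEF-1, that is induced early on this path and in T cell development.

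The kept cells held 3250964 UMIs in ALP, 1707866 in ILCpro_KO and 5230697 in ILCpro_WT, with medians of 4413, 4627 and 2802 UMIs per cell. ILCpro_KO shared 0 barcodes with either other library, and ALP and ILCpro_WT shared 4. The rule removed 53.8% of ILCpro_KO cells against 15.4% of ALP cells, and 157 of the 385 cells removed from ILCpro_KO failed on the sum of Elane, Mpo, Prtn3 and Ctsg alone. At that threshold, 28 ILCpro_KO and 27 ALP cells had a sum of exactly 4, just inside, and 28 and 9 a sum of exactly 5, just outside. The removed cells were deeper than the kept ones, with medians of 6330 UMIs in ILCpro_KO and 6613 in ALP. A level is the sum of a gene's UMIs in the kept cells per 1000000 UMIs of that library (CPM). Parentheses hold exact 95% intervals, which are Poisson for a level, conditional binomial for a ratio and Clopper-Pearson for a share. All of these cover counting error only. Cells of 1 library are not replicates, so no test was possible and no p-value is given.

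Tcf7 itself (ENSMUSG00000000782), which lies on the minus strand of GRCm38 chromosome 11 from 52252371 to 52283014, gave 1.85 CPM (0.677 to 4.02) for ALP, 102 CPM (87.3 to 118) in ILCpro_KO and 403 CPM (386 to 420.2) in ILCpro_WT. The null library was thus far above ALP and 3.95-fold (3.38 to 4.64) below ILCpro_WT. How much of the gene the null alleles lack is not given in the labels, so RNA read at its 3' end is no check of the genotype. The genes of the gate followed the labels: Itgb7 and Itga4, the chains of a4b7, stood at 20.6 and 177 CPM in ALP and at 172 and 643 CPM in ILCpro_KO, and Flt3 at 317 and 80.2 CPM. Kit, the stem cell factor receptor, and Cd244, the gene of 2B4, which all gates required, stood at 28.0 and 43.7 CPM in ALP and at 32.8 and 119 CPM in ILCpro_KO. Since these genes were used to sort the cells, their differences between the gates are not results. ILCpro_KO cells are called null cells here by the label of their genotype, and a gene present in them is not shown to be independent of TCF-1.

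Among 9638 genes with at least 5 CPM in either library, 182 (1.89%) were at least 2-fold higher in ILCpro_KO and 180 (1.87%) at least 2-fold lower, on a log2 scale with 10 CPM added to both values. The median over all genes was 0.03. The ILC factor Id2 had the highest log2 ratio and Dntt, a gene of antigen receptor joining, the lowest among the 2965 genes that reached 50 CPM on the higher side. The 20 genes furthest in each direction among these are named below. The shares of 1.89% higher and 1.87% lower over all tested genes are those beside which the list counts below are to be read. Without the 7 lineage sums, 116 of the 182 and 119 of the 180 genes remained at least 2-fold.

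**Figure D1:**
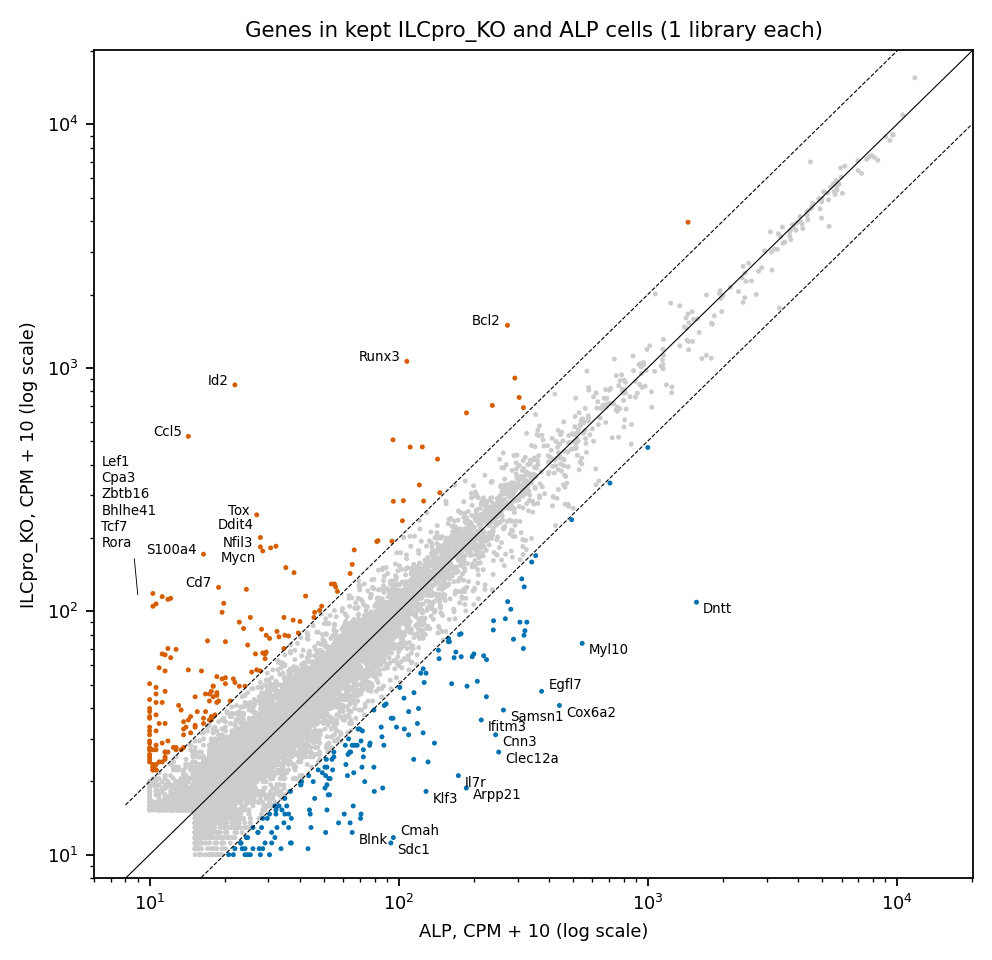
Each point is 1 of 9638 genes, with its level in kept ALP cells on the x axis and in kept ILCpro_KO cells on the y axis, both as CPM + 10 on log scales, 1 library each. Orange points are the 182 genes at least 2-fold higher and blue points the 180 at least 2-fold lower, the dashed lines mark 2-fold, and Id2 and Ccl5 lie farthest above the diagonal and Dntt lies farthest below it among genes that reached 50 CPM.

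Of the 15 ILC transcription factors listed, 14 reached 5 CPM, and 12 of these were at least 2-fold higher in ILCpro_KO, 1 (Ets1) at least 2-fold lower and 1 (Bcl11b) neither. Their median log2 ratio was 2.97, and 2.72 without Tcf7, against 0.03 for all genes. With plain folds, and the 2 genes that had 0 UMIs in ALP set to the floor of 3 UMIs, it was 4.37. Tbx21, the factor below 5 CPM, which directs natural killer (NK) cells and group 1 ILCs, had 1 UMI in ILCpro_KO and 0 in ALP. The list was drawn up with results of these data known, so its count describes these libraries and is no separate evidence.

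Id2 (ENSMUSG00000020644, chromosome 12, 25093799 to 25097140, minus strand) gave 12.0 CPM (8.53 to 16.4) in ALP, 841 CPM (798 to 885) in ILCpro_KO and 755 CPM (732 to 779) in ILCpro_WT. Both progenitor libraries from the a4b7+ gate were high, and ALP was 70.1-fold (51.02 to 98.98) below ILCpro_KO. Runx3, a Runt factor of ILCs and cytotoxic lymphocytes, stood at 97.8, 1053 and 745 CPM in the same order, 10.8-fold (9.55 to 12.2) higher in ILCpro_KO than in ALP. Tox, an HMG-box factor needed for ILC progenitors, stood at 16.9, 239 and 219.7 CPM. For these 3 genes the null cells were at or above the level of ILCpro_WT.

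Nfil3, a basic leucine zipper factor that acts at the start of the ILC path, stood at 17.8 CPM in ALP, 174 CPM (155 to 195) in ILCpro_KO and 68.1 CPM in ILCpro_WT, so it was highest without TCF-1, 2.56-fold (2.18 to 2.99) above ILCpro_WT. Lef1, the close relative of Tcf7, had 1 UMI in ALP and stood at 108 CPM (93.3 to 125) in ILCpro_KO and 50.9 CPM in ILCpro_WT, 2.13-fold (1.76 to 2.58) higher in the null cells. Its UMIs in ILCpro_KO came from 58 cells, of which the richest held 6.49%.

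A further set of factors was present in the null cells at levels between the other libraries. Zbtb16 had 1 UMI in ALP and stood at 94.9 CPM (80.8 to 111) in ILCpro_KO and 299.8 CPM in ILCpro_WT, a 308-fold ratio to ALP with a wide counting interval (54.6 to 12254). Rora, the nuclear receptor on which group 2 ILCs depend, stood at 2.15, 103 and 506 CPM in ALP, ILCpro_KO and ILCpro_WT. Gata3, a zinc finger factor of T cells and ILCs, stood at 32.3, 105 and 374 CPM, and Ikzf2, the Ikaros family member Helios, at 25.2, 141 and 414 CPM. Maf stood at 1.54, 46.8 and 98.5 CPM. Each of these 5 genes was higher in ILCpro_KO than in ALP and lower than in ILCpro_WT, with Rora 4.91-fold (4.21 to 5.75) and Gata3 3.54-fold (3.04 to 4.15) below ILCpro_WT. Tox2, a relative of Tox, had 0 UMIs in ALP, 57 in ILCpro_KO (33.4 CPM) and 1289 in ILCpro_WT (246 CPM), at least 36.2-fold above the ALP floor and 7.38-fold (5.66 to 9.80) below ILCpro_WT.

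Only Bcl11b and Ets1 among the tested factors did not reach 2-fold higher. Bcl11b, a zinc finger factor of T cells and group 2 ILCs, had 0 UMIs in ALP, 11 in ILCpro_KO (6.44 CPM, 3.22 to 11.5) and 509 in ILCpro_WT (97.3 CPM). Its log2 ratio to ALP was 0.72, and 1.41 with cells of other lineages kept. Ets1, a factor of lymphoid development, stood at 51.1 CPM in ALP, 18.2 CPM in ILCpro_KO and 125 CPM in ILCpro_WT, so the null cells were lowest, 2.81-fold (1.91 to 4.27) below ALP. Its log2 ratio was -1.12, and -0.77 with cells of other lineages kept and -0.92 as a mean of per-cell CPM, where it was no longer 2-fold.

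**Figure D2:**
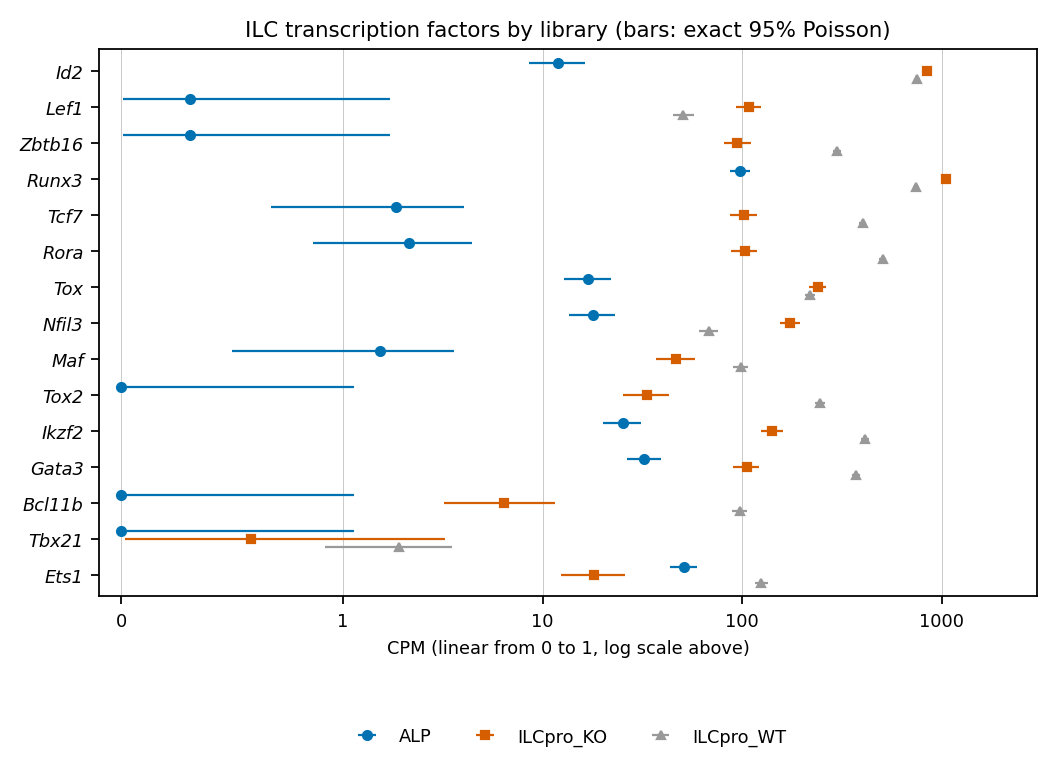
Level of 15 ILC transcription factors in the 3 libraries, in CPM on an axis that is linear from 0 to 1 and logarithmic above, ordered by the log2 ratio of ILCpro_KO to ALP. Points are 1 library each and bars exact 95% Poisson intervals; from Id2 to Gata3 the ILCpro_KO squares lie to the right of the ALP circles, while for Ets1 they lie to the left of both other libraries.

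Of 10 genes that mark the later ILC progenitor stage in ILCpro_WT, 7 reached 5 CPM in ILCpro_KO or ALP and 5 of these were at least 2-fold higher in ILCpro_KO than in ALP: Rxrg, Tox2, Rora, Lmo4 and Ccl5. The list was taken from an earlier comparison of these same libraries, so a low level in ILCpro_KO is what chose them and supports nothing. Fgf3, a secreted growth factor, had 1 UMI in ALP, 2 in ILCpro_KO and 823 in ILCpro_WT (157 CPM). Bcas1 stood at 3.08, 9.37 and 159 CPM, and Txk, a Tec family kinase of T and NK cells, at 1.54, 7.61 and 81.3 CPM. Cacna1e, a calcium channel subunit, and Igfbp7, a secreted binding protein, stood at 2.34 and 4.10 CPM in ILCpro_KO and at 65.0 and 59.1 CPM in ILCpro_WT. Rxrg, a retinoid receptor, had 0 UMIs in ALP and stood at 26.9 and 110.3 CPM in ILCpro_KO and ILCpro_WT, and Lmo4, a LIM-domain cofactor, stood at 45.2, 119 and 666 CPM. With cells of other lineages kept, the log2 ratio of Lmo4 was 0.98 in place of 1.23.

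Surface and effector genes of ILC precursors were also higher in the null cells, with 8 of 11 tested members at least 2-fold higher, 0 at least 2-fold lower and a median log2 ratio of 1.91, or 3.69 as a log2 fold without the added 10 CPM and with the 2 genes that had 0 UMIs in ALP at their floor. Ccl5, a chemokine of T, NK and ILC lineages, stood at 4.31 CPM in ALP, 513 CPM (480 to 548) in ILCpro_KO and 1398 CPM in ILCpro_WT, and was 119-fold (70.6 to 219) higher in ILCpro_KO than in ALP. Cd7, an immunoglobulin family receptor of lymphoid progenitors, stood at 8.92, 115 and 57.4 CPM, highest in the null cells. Pdcd1, which encodes the inhibitory receptor PD-1, stood at 2.15, 54.5 and 137 CPM, and Il18r1, a chain of the interleukin 18 receptor, at 28.0, 134 and 230.2 CPM. Il2rb, the receptor chain shared by interleukins 2 and 15, had 2 UMIs in ALP and stood at 35.7 CPM in ILCpro_KO, 58.1-fold (15.4 to 490.2) higher, against 23.1 CPM in ILCpro_WT.

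Markers of the mature ILC and NK lineages were counted by list. Of 3 tested group 2 ILC genes 2 (Gata3 and Hes1) were at least 2-fold higher. Of 6 tested genes of group 3 ILCs and lymphoid tissue inducer cells the 2 that were at least 2-fold higher were Cxcr5, a chemokine receptor with 0 UMIs in ALP and 17.0 CPM in ILCpro_KO, and Ltb, the lymphotoxin beta gene, at 19.1 and 56.8 CPM in ALP and ILCpro_KO and 177 CPM in ILCpro_WT. With cells of other lineages kept, the log2 ratios of Cxcr5 and Ltb were 0.88 and 0.70, under 2-fold. Nkg7, a granule protein gene of cytotoxic lymphocytes, was the 1 of 3 tested NK genes at least 2-fold higher, at 114 CPM in ALP, 463 CPM in ILCpro_KO and 384 CPM in ILCpro_WT. Eomes, a T-box factor of NK cells, had 0, 12 and 53 UMIs in the same order. Klrd1 of the same list went the other way, at 34.8, 12.9 and 22.9 CPM, 2.70-fold (1.70 to 4.48) lower in ILCpro_KO than in ALP. Its log2 ratio was -0.97, between -1.99 and -0.43 under the alternatives, and 1 cell held 81.8% of its ILCpro_KO UMIs.

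Homing and cytokine receptors divided. Apart from the integrin chains of the gate, 2 of the tested chemokine receptor and homing genes were at least 2-fold higher, Cxcr5 and Ccr2, which guides cells out of the marrow and stood at 1.23 CPM in ALP, 56.8 CPM in ILCpro_KO and 72.5 CPM in ILCpro_WT. Of 19 tested cytokine receptor genes 3 (Il2rb, Il18r1 and Il12rb2) were at least 2-fold higher and 1 (Il18rap) lower, with a median log2 ratio of 0.01. Il12rb2 was just past 2-fold, at 1.01, and 0.68 with cells of other lineages kept. Il18rap, the signalling partner of Il18r1, stood at 41.5, 12.9 and 9.37 CPM in ALP, ILCpro_KO and ILCpro_WT, so the chains of this receptor lay on opposite sides of ALP. Il7r, the interleukin 7 receptor chain, stood at 164 CPM in ALP, 11.1 CPM (6.70 to 17.4) in ILCpro_KO and 106 CPM in ILCpro_WT. ALP was sorted on IL-7Ra and the a4b7+ gate was not, and within that gate the null cells were 9.50-fold (6.03 to 15.9) below ILCpro_WT.

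Other genes among the 20 most increased belonged to none of the ILC groups. Bcl2, an inhibitor of apoptosis, stood at 263 CPM in ALP, 1485 CPM (1428 to 1544) in ILCpro_KO and 1291 CPM in ILCpro_WT, 5.64-fold (5.22 to 6.10) higher in ILCpro_KO than in ALP, and it was the 1 of 8 tested Bcl2 family genes past 2-fold. Mycn, a MYC family factor, stood at 18.5, 167 and 124 CPM, and Ddit4, an inhibitor of mTORC1 signalling, at 17.8, 191 and 163 CPM. S100a4, a calcium-binding protein, and Cpa3, a carboxypeptidase known from mast cells, stood at 6.46 and 1.23 CPM in ALP, 162 and 105 CPM in ILCpro_KO and 172 and 116 CPM in ILCpro_WT. Cpa3 UMIs lay in 102 ILCpro_KO cells, and none of the other 8 mast cell, basophil and eosinophil genes listed reached 5 CPM. That list leaves out the basophil proteases Prss34 and Mcpt8, which belong to the cell filter. Held down by the rule, their sum stood at 25.2 CPM in kept ILCpro_KO and 2.77 CPM in kept ALP cells. Mif4gd, a translation factor, stood at 22.1, 175 and 119 CPM.

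Bhlhe41, a basic helix-loop-helix repressor, had the lowest ILCpro_WT level of the 20 genes. It had 2 UMIs in ALP and stood at 97.2 CPM (83.0 to 113) in ILCpro_KO and 5.74 CPM in ILCpro_WT, 16.9-fold (11.4 to 25.9) higher in the null cells than in ILCpro_WT. Its UMIs came from 44 of the 331 null cells. Those cells held Runx3 at 1806 CPM and Cd7 at 216 CPM, against 932 and 99.2 CPM in the other 287, and Dntt at 4.23 CPM against 114 CPM. Car1, the carbonic anhydrase gene of red cell precursors, ranked among the 20 most increased genes at 60.3 CPM against 1.85 CPM in ALP, but it was found in 4 cells, 1 of which held 44.7% of its UMIs. With Pf4, a platelet gene at 22.2 CPM in 3 cells, it marked 7 null cells in which Id2 had 2 UMIs, and Id2 stood at 869 CPM in the remaining 324.

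The lowest log2 ratio among genes that reached 50 CPM, with 10 CPM added to both values, was that of Dntt (ENSMUSG00000025014, chromosome 19, 41029275 to 41059525, plus strand), which encodes the polymerase that adds bases at antigen receptor joints. It gave 1559 CPM (1516 to 1602) for ALP, 99.0 CPM (84.6 to 115) in ILCpro_KO and 31.9 CPM (27.3 to 37.2) in ILCpro_WT, 15.8-fold (13.5 to 18.5) lower in ILCpro_KO than in ALP. ALP was high, both a4b7+ libraries were low, and the null cells remained 3.10-fold (2.49 to 3.86) above ILCpro_WT. Rag2, a subunit of the recombinase, had 108 UMIs in ALP, 1 in ILCpro_KO and 8 in ILCpro_WT, 56.7-fold (9.97 to 2261) lower in the null cells. Rag1, the other subunit, had 30, 0 and 5 UMIs and was at least 5.25-fold lower in ILCpro_KO, with 3 UMIs taken as that library's floor.

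Of the 11 early lymphoid genes, all of which were tested, 0 were at least 2-fold higher and 5 at least 2-fold lower: Dntt, Rag2, Bcl11a, Notch1 and Ly6a. Their median log2 ratio was -0.94, and -1.41 as a plain log2 fold with Rag1 at its floor. Notch1, the receptor that commits progenitors to the T lineage, stood at 115 CPM in ALP, 21.7 CPM in ILCpro_KO and 21.6 CPM in ILCpro_WT, 5.32-fold (3.79 to 7.68) lower in ILCpro_KO. Bcl11a, a factor that B cell development needs, stood at 264, 99.5 and 71.3 CPM. Mef2c, a MADS-box factor of lymphoid priming, was under 2-fold at 848 CPM in ALP and 475 CPM in ILCpro_KO, and 188 CPM in ILCpro_WT. Satb1, Cd27 and Sox4 were likewise under 2-fold, with 144, 167 and 281 CPM in ILCpro_KO against 255, 273 and 422 CPM in ALP. Among cells scored as G1 the log2 ratios of Mef2c and Satb1 were -1.24 and -1.01, and with all lineage sums at 0 that of Sox4 was -1.13, each past 2-fold. Ly6a, at 22.1 and 5.27 CPM, was no longer 2-fold with cells of other lineages kept, where its log2 ratio was -0.34.

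**Figure D3:**
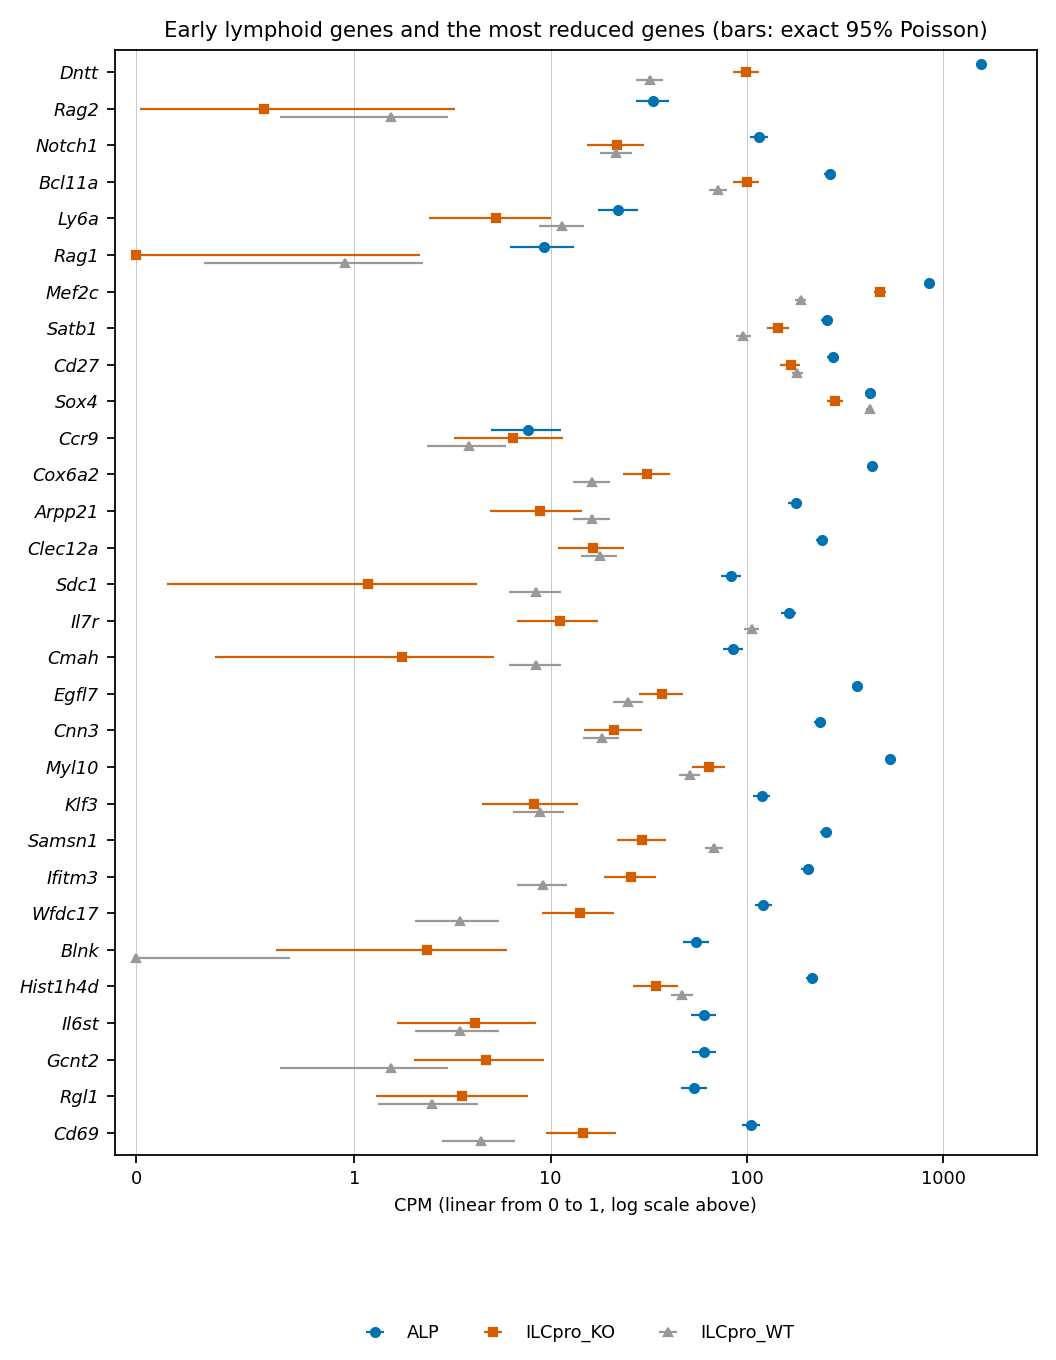
Level of the 11 early lymphoid genes (top, ordered by the log2 ratio of ILCpro_KO to ALP) and of the other genes among the 20 most reduced, in CPM on an axis linear from 0 to 1 and logarithmic above. Points are 1 library each and bars exact 95% Poisson intervals; Dntt lies at 1559 CPM in ALP and 99.0 CPM in ILCpro_KO, and Il7r is the gene whose ILCpro_WT level lies nearest to ALP and farthest above ILCpro_KO among the most reduced genes.

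The sequences just upstream of a few of these genes show what letters lie where the recombination and Runx3 genes start. The 250 bases before the start site were taken from RefSeq (GRCm38.p6), at chr4:135120395-135120644 on the plus strand for Runx3, chr19:41029025-41029274 on the plus strand for Dntt, chr2:101649533-101649782 on the minus strand for Rag1 and chr13:24327154-24327403 on the plus strand for Cmah, 1 of the 20 most reduced genes. They are written 5' to 3' on the strand of the gene. Capitals mark matches on either strand to an E-box or a TCF/LEF core, which do not contain each other. The E-box searched, a kind of site that E proteins bind, was CAGGTG. The core of the TCF/LEF site searched was CTTTGA, which appears in Cmah as its reverse complement.
Runx3: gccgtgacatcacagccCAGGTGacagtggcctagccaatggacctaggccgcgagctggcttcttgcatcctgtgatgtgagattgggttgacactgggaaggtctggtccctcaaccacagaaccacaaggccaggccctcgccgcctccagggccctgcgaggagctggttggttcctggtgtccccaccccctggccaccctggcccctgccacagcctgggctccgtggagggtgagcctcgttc
Dntt: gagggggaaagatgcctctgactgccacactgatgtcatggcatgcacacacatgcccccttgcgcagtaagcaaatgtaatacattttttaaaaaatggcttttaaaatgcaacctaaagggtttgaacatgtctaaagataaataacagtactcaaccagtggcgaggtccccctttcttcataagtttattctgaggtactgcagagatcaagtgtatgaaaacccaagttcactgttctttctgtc
Rag1: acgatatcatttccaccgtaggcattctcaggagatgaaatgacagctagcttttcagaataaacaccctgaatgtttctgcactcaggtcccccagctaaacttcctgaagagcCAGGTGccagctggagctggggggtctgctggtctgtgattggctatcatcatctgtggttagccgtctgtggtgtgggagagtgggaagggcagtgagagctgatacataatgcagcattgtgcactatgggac
Cmah: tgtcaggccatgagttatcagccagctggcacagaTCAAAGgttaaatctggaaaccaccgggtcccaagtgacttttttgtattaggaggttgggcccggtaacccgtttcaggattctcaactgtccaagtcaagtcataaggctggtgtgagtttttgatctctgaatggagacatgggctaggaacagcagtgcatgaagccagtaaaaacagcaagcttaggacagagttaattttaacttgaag
These 4 were chosen after the matches were seen: Runx3 and Rag1 each hold 1 E-box, Cmah holds 1 TCF/LEF core and Dntt neither. Over the 7398 tested genes matched to such a window, 13.8% held the E-box and 10.7% the TCF/LEF core. Of the 130 matched genes at least 2-fold higher in ILCpro_KO, 17.7% held the E-box and 11.5% the core, and of the 135 matched genes at least 2-fold lower 17.0% and 13.3%. The genes gained and the genes lost thus had similar shares of both motifs, and a match of letters is not a binding site.

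The E proteins did not all follow the loss. Tcf4, which encodes the E protein E2-2, stood at 309 CPM in ALP and 116 CPM in ILCpro_KO, 2.67-fold (2.29 to 3.12) lower in ILCpro_KO than in ALP. With all lineage sums at 0 its log2 ratio was -0.82, under 2-fold. Tcf3, the gene of E2A, stood at 122 and 99.5 CPM in ALP and ILCpro_KO, and Tcf12, the gene of HEB, at 46.8 and 56.8 CPM, both under 2-fold. Among the inhibitors that pair with them, Id1 had 3 UMIs in ALP and 2 in ILCpro_KO and Id3 2 and 1, so Id2 was the one at a high level.

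Notch pathway genes other than Notch1 did not decline with it. Hes1, a Notch target, had 2 UMIs in ALP and stood at 13.5 CPM in ILCpro_KO and 51.0 CPM in ILCpro_WT, 21.9-fold (5.41 to 192) higher in ILCpro_KO than in ALP. Its log2 ratio was 1.14, but 0.66 with cells of other lineages kept and 0.73 after thinning to 1000 UMIs. Notch2 and Rbpj, the DNA-binding partner of Notch, stood at 82.7 and 37.8 CPM in ALP and 119 and 56.2 CPM in ILCpro_KO, under 2-fold.

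Of 5 tested genes of B lineage priming, Blnk was the 1 at least 2-fold lower and Lef1, which T cells and ILC progenitors also use, the 1 higher, and the median was -0.69. Blnk, an adaptor of the B cell receptor, stood at 55.1 CPM in ALP and 2.34 CPM in ILCpro_KO, 23.5-fold (9.02 to 87.2) lower, and had 0 UMIs in ILCpro_WT. Ebf1, which commits cells to the B lineage, stood at 30.8, 15.2 and 4.78 CPM, and Ly6d, which marks B-primed lymphoid progenitors, at 23.7, 8.20 and 3.06 CPM, both under 2-fold on the scale with 10 CPM added. With all lineage sums at 0 their log2 ratios were -1.42 and -1.63, past 2-fold. Ly6d had 14 UMIs in 8 ILCpro_KO cells, of which 1 cell held 50%. Sdc1, which encodes the plasma cell antigen CD138, had 270 UMIs in ALP and 2 in ILCpro_KO, 70.9-fold (19.4 to 589) lower.

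Genes of plasmacytoid dendritic cells (DCs), which share a progenitor stage with lymphocytes, were lower in 5 of 7 tested members, with a median log2 ratio of -1.45. Siglech, their defining lectin, stood at 26.8 CPM in ALP and had 2 UMIs in ILCpro_KO. Cox6a2, a cytochrome oxidase subunit of plasmacytoid DCs, stood at 432 CPM in ALP, 31.0 CPM in ILCpro_KO and 16.3 CPM in ILCpro_WT. Bst2 stood at 229.8 CPM in ALP and 73.8 CPM in ILCpro_KO, and Runx2 was 3.06-fold (2.45 to 3.85) lower. Pacsin1, named for this count after its value was seen, was the 1 member at least 2-fold higher. Irf8, a factor of DCs and monocytes, stood at 793 CPM in ALP, 562 CPM in ILCpro_KO and 224 CPM in ILCpro_WT, so null cells were 2.51-fold above ILCpro_WT. Its log2 ratio to ALP was -0.49, but -1.36 with all lineage sums at 0 and 0.06 with cells of other lineages kept. Interferon response genes, which overlap that list in Bst2, were lower in 4 of 8, against 1.87% of all tested genes. Among them was Ifitm3, at 205 CPM in ALP and 25.8 CPM in ILCpro_KO. The log2 ratio of Ifitm3 was -2.58 and became -0.76 with cells of other lineages kept, where the removed ILCpro_KO cells held it at 186 CPM.

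Stem and multipotent progenitor genes were lower in 6 of 13 tested members, with a median of -0.82, and Mycn was the 1 higher. As a log2 fold without the added 10 CPM and with the 2 genes that had 0 UMIs in 1 library at their floor, the median was -1.53. Hoxa9, a homeobox factor of stem cells and early progenitors, stood at 99.7, 21.1 and 15.3 CPM in ALP, ILCpro_KO and ILCpro_WT, and Hoxa7 at 66.4, 18.2 and 14.0 CPM. Lmo2, a LIM-domain cofactor of blood stem cells, stood at 153, 40.4 and 8.22 CPM, so the null cells held 4.91-fold the level of ILCpro_WT. With all lineage sums at 0 its log2 ratio against ALP was -0.86 in place of -1.69. Other strongly reduced genes were Myl10, a myosin light chain, at 536 and 63.8 CPM, Egfl7 at 365 and 36.9 CPM, Clec12a, a myeloid lectin receptor, at 242 and 16.4 CPM, and Arpp21 at 177 and 8.78 CPM. Cnn3, Klf3, Samsn1, Wfdc17, Il6st, Gcnt2, Rgl1, Cd69, Cmah and Hist1h4d completed the 20, with 53.8 to 253 CPM in ALP and 1.76 to 34.5 CPM in ILCpro_KO. The value of Hist1h4d is uncertain, because near-identical histone copies can share its reads.

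**Figure D4:**
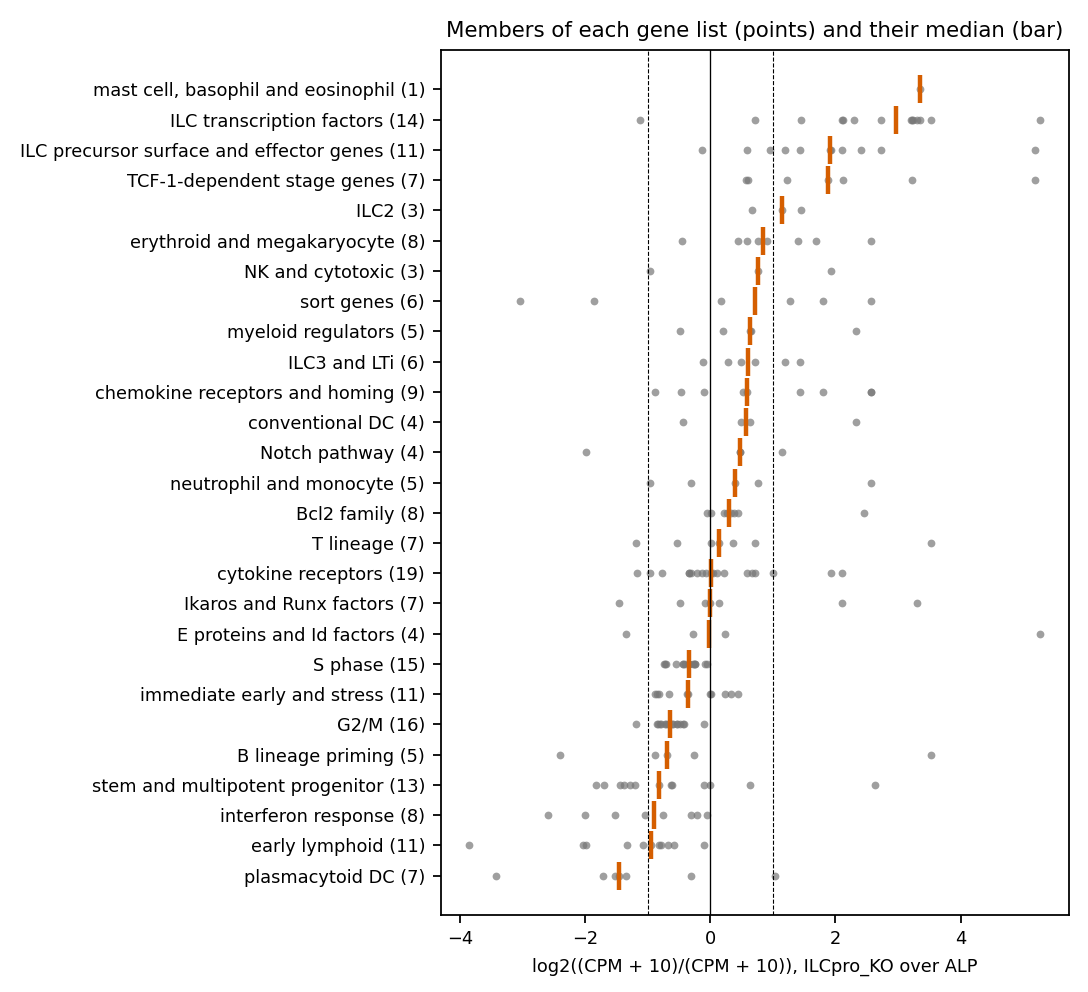
Log2 ratio of ILCpro_KO to ALP, with 10 CPM added to both, for each tested member (points) of 27 gene lists and their median (orange bar), with the number of tested members in parentheses. Dashed lines mark 2-fold; ILC transcription factors lie mostly right of it with a median of 2.97, and plasmacytoid DC genes mostly left of it with a median of -1.45.

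Counts per cell showed how often UMIs of the ILC factors and of the early lymphoid genes were found in the same cells. Every cell was thinned to 1000 UMIs, which all ALP and ILCpro_KO cells reached. At least 1 UMI of the ILC factors other than Tcf7 was found in 24.4% of ALP cells, 85.2% of ILCpro_KO cells and 88.6% of ILCpro_WT cells, and at least 1 UMI of the early lymphoid genes in 93.9%, 69.8% and 59.9%. A UMI of each set was found together in 23.5% (20.4 to 26.9) of ALP, 59.5% (54.01 to 64.8) of ILCpro_KO and 52.7% (50.2 to 55.2) of ILCpro_WT. In ILCpro_KO the early lymphoid genes summed to 1300 CPM, with Mef2c at 475, Sox4 at 281, Cd27 at 167, Satb1 at 144 and Dntt at 99.0 CPM. Most of its UMIs thus came from genes under 2-fold, and the share with both sets is not one of lost genes. The median cell held 0, 3 and 4 UMIs of the ILC factors and 4, 1 and 1 UMIs of the early lymphoid genes in the same order. In cell counts of the ILC set as a whole, the null library thus lay near ILCpro_WT and apart from ALP. It lay between them in the share with early lymphoid genes. With Tcf7 included, the ILC set summed to 3067 CPM in ILCpro_KO, of which Runx3 and Id2 gave 1053 and 841 CPM. In ILCpro_WT it summed to 4403 CPM, with 745 and 755 CPM from these genes. Id2, Runx3, Tox, Nfil3 and Lef1 were at or above ILCpro_WT in the null cells, and the other factors of the set were below it.

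**Figure D5:**
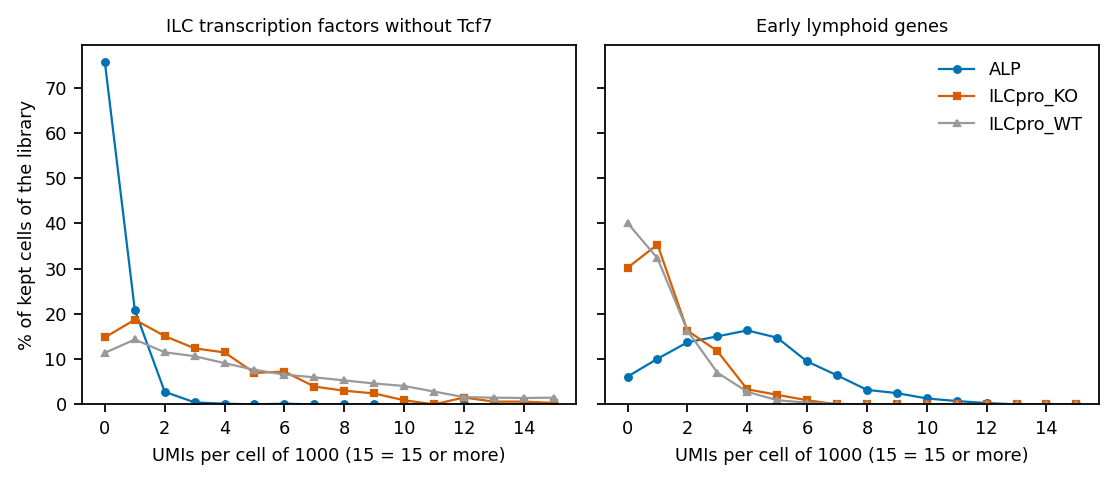
Share of kept cells of each library (y axis, %) by the number of UMIs of the listed genes in a cell thinned to 1000 UMIs (x axis, with 15 standing for 15 or more), for 14 ILC transcription factors other than Tcf7 on the left and 11 early lymphoid genes on the right. ALP cells pile up at 0 on the left, where the median ILCpro_KO cell holds 3 UMIs, and are spread around 4 on the right, where the median ILCpro_KO cell holds 1.

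The same shares were taken for single genes, with ILCpro_KO above ILCpro_WT for Id2 and below it for Zbtb16. Id2 was found in 1.90% (1.01 to 3.22) of ALP, 49.2% (43.7 to 54.8) of ILCpro_KO and 46.2% (43.8 to 48.7) of ILCpro_WT cells after thinning, and in 5.26%, 75.8% and 67.4% without it. Among 45 ILCpro_KO cells removed by the Lyz2, S100a8 and S100a9 sum, with a median of 6614 UMIs before thinning, the share was 15.6% (6.49 to 29.5). Without thinning it was 48.9% (33.7 to 64.2). Zbtb16 was found in 0 of the 685 cells of ALP, where a count of 0 allows a share of cells with a UMI at this depth of up to 0.438%, taken as 3 cells of the total. It was found in 8.16% (5.44 to 11.6) of ILCpro_KO and in 25.5% of ILCpro_WT cells, or in 0.146%, 25.4% and 48.99% of the 3 libraries unthinned, against 2.22% (0.0562 to 11.8) of the 45 removed cells. That interval overlaps the ILCpro_KO share. Dntt was found in 70.7% of ALP, 8.46% (5.69 to 12.0) of ILCpro_KO and 3.02% of ILCpro_WT cells, or 94.01%, 19.03% and 6.33% unthinned, and, after thinning, in 0 of the 45 removed cells, which allows up to 6.67% by the same count of 3. Without thinning, Dntt was found in 4.44% (0.543 to 15.1) of those removed cells.

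Within the null library the sets as a whole were spread evenly, while some single genes were not. A UMI of the early lymphoid genes was found in 69.9% (64.1 to 75.2) of the 282 thinned cells with ILC factors other than Tcf7. The share was 69.4% (54.6 to 81.7) in the 49 cells without them. Dntt or Flt3 was found in 7.36% (3.86 to 12.5) of the 163 thinned cells with Id2 and in 24.4% (18.1 to 31.6) of the 168 cells without it. In ALP the shares were 76.9% (46.2 to 94.96) of 13 cells and 78.3% of 672. In ILCpro_WT they were 2.00% of 751 cells with Id2 and 6.19% of 873 without it, also lower with Id2. Runx3 went with Id2, in 67.5% of the null cells with Id2 and 47.6% of those without. Tox, Zbtb16 and Nfil3 differed less, at 24.5%, 8.59% and 14.1% with Id2 and 19.6%, 7.74% and 18.5% without. Rora was found in 33.3% (16.5 to 53.96) of the 27 null cells with Zbtb16 and in 4.28% (2.30 to 7.20) of the other 304. In ILCpro_WT Rora was likewise more frequent with Zbtb16, in 55.6% of 414 cells with it and 26.9% of 1210 without. These are descriptions of cells of 1 library each, and no test was made.

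Summed over unthinned cells, the 84 null cells with a Zbtb16 UMI held Rora at 265 CPM, Pdcd1 at 115 CPM and Lef1 at 233 CPM, against 34.9, 29.1 and 55.7 CPM in the 247 cells without one. Ccl5 stood at 949.8 and 329 CPM in these cells, and Irf8 at 229.5 and 702 CPM. Id2 was spread over both, at 738 and 884 CPM, as was Dntt, at 93.0 and 101 CPM. The cells with Zbtb16 were the deeper, with medians of 5310 and 4489 UMIs, and the part of depth in this split was not tested.

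Markers of other cells were counted in the kept cells. Of 12 neutrophil and monocyte genes 5 reached 5 CPM and Ccr2 was the 1 at least 2-fold higher. Of 9 conventional DC genes 4 reached it and Batf3, a factor of DCs, was the 1 past 2-fold, with 0 UMIs in ALP and 40.4 CPM in ILCpro_KO (22.6 CPM in ILCpro_WT). Cst3, a cysteine protease inhibitor gene on that list, stood at 534 CPM in ALP, 393 CPM in ILCpro_KO and 299.6 CPM in ILCpro_WT. Of 8 tested erythroid and megakaryocyte genes 3 (Hbb-bt, Car1 and Pf4) were at least 2-fold higher, and the sum of the list was 91.0 CPM in ALP, 277.5 CPM in ILCpro_KO and 105 CPM in ILCpro_WT. Hbb-bt, a globin gene, stood at 7.69 CPM in ALP and 36.9 CPM in ILCpro_KO, where 1 of the 25 cells with it held 27.0% of its UMIs. The part of these transcripts in the results was not tested. Among the 6 macrophage genes 0 reached 5 CPM. Spi1, which encodes the myeloid and lymphoid factor PU.1, stood at 133 CPM in ALP, 215 CPM in ILCpro_KO and 67.3 CPM in ILCpro_WT. Of 7 tested T lineage genes Lef1 was the 1 higher and Cd28 the 1 lower. The 7 sums of the rule were held down but not to 0. Given for kept ILCpro_KO and then kept ALP cells, the Elane, Mpo, Prtn3 and Ctsg sum stood at 213 and 165 CPM. The Cd3d, Cd3e and Cd3g sum stood at 17.0 and 0.923 CPM, and the Prss34 and Mcpt8 sum at 25.2 and 2.77 CPM. The Lyz2, S100a8 and S100a9 sum was lower in ILCpro_KO, at 45.7 and 119 CPM. So was the Hba-a1 and Hbb-bs sum, at 7.61 and 22.1 CPM. The Cd79a and Cd79b sum stood at 37.5 and 36.3 CPM, and the Cd74, H2-Aa, H2-Ab1 and H2-Eb1 sum at 59.7 and 57.2 CPM. What these sums add to the results was not tested. The 385 removed ILCpro_KO cells also held Id2 at 562 CPM, Runx3 at 343 CPM, Nfil3 at 139 CPM and Bcl2 at 745 CPM, all above their levels in kept ALP cells, and Zbtb16 at 22.4 CPM, under the 94.9 CPM of the kept null cells.

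Of 31 cell cycle genes Nusap1 was the 1 past 2-fold, and it was lower, where 1.87% of all tested genes were. The 15 S phase genes had a median log2 ratio of -0.34 with 0 past 2-fold, and the 16 G2/M genes a median of -0.64. Nusap1, a spindle protein, stood at 135 CPM in ALP and 53.9 CPM in ILCpro_KO. Its log2 ratio of -1.19 became 0.04 among cells scored as G1. Such cells are low in G2/M genes, so that value was set in part by the choice of cells. With all lineage sums at 0, Rrm2, Uhrf1, Cdc6 and Gins2 of the S phase list were past 2-fold lower, with log2 ratios of -1.88, -1.53, -1.31 and -1.16. The share of cells in G1 was 46.4% in ALP and 43.8% in ILCpro_KO. Immediate early and stress genes were past 2-fold in 0 of 11.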

How the data were processed

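Each of the 3 sorted populations was measured in 1 library and grouped by the title of its sample. The authors deposited UMI counts per gene and cell barcode for 27998 genes; per the submitters' processing notes Cell Ranger 2.0.1, STAR 2.5.1b and bcl2fastq 2.17 were used, with mm10 as genome build, and how cells were called is not given in the sources used here. The reporter EGFP was not analysed here.

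Counts were summed over kept cells and scaled to CPM (Python 3.11.15, NumPy 2.4.6, SciPy 1.17.1, scanpy 1.11.5). Total counts per kept library ran from 1707866 to 5230697, so 3 UMIs, the floor used where a library had 0, equal 0.574 to 1.76 CPM. Log2 ratios are log2((CPM + 10)/(CPM + 10)) and understate low genes, and folds are plain ratios. With 1 library per group there was no spread to test against. Shares of cells used cells thinned at random to 1000 UMIs. The steps were tested on simulated data. Doublets were kept, with their removal (Scrublet, 0.8% per 1000 barcodes) as an alternative, and no clustering was done. Gene positions come from GENCODE M21.

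Genes are named by a rule: the 20 highest and 20 lowest ratios where the higher value reached 50 CPM, without gene models and filter, sex-linked, mitochondrial or ribosomal genes; all members of the ILC factor, sort, early lymphoid, E protein and stage lists; and up to 4 members of each other list. The members, the 28 lists and the alternatives were chosen with earlier results of these data known, and ILCpro_KO and ILCpro_WT values are set beside the same ALP library. Some list members are not reported here and were left out of their lists' counts, medians and sums.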

Additional observations from a re-analysis of the deposited data

How the results depend on the processing

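Of the 40 most changed genes, 40 kept their direction under all 13 alternatives and 38 stayed at least 2-fold; the exceptions were Ifitm3, with cells of other lineages kept, and Rgl1, with 50 CPM added. Another minimum does not enter a gene's ratio, and the same value added to both sides cannot turn its direction. Those settings could not change direction, and Tcf7, Itgb7 and Il7r among the 40 belong to the gates. The 40 genes were also chosen for their extreme ratios in these same libraries, so a kept direction is no separate evidence. The numbers of genes at least 2-fold higher and lower, 182 and 180, moved by over 1.5 times under several settings. They were 497 and 577 with all lineage sums at 0 (53 ILCpro_KO and 151 ALP cells), 304 and 354 in G1 cells (145 and 318 cells), 352 and 436 after thinning to 1000 UMIs, 552 and 595 with 1 CPM added and 45 and 48 with 50 CPM added. Without ribosomal and mitochondrial genes in the total 284 genes were lower. Fewer summed UMIs widen the counting error of low genes in the first 3 of these, and a smaller or larger added value counts more or fewer low genes by construction. For the total without ribosomal and mitochondrial genes more genes were tested, 10288. The counts stayed within 1.5 times with cells of other lineages kept, doublets removed, a mean of per-cell CPM, median-of-ratios scaling, another minimum or none, and without the Elane, Mpo, Prtn3 and Ctsg sum, an alternative chosen after seeing the data (156 and 156). Without a minimum the counts could not change, because a gene under 5 CPM in both libraries cannot reach 2-fold with 10 CPM added. A higher minimum could only remove genes. Doublet removal took out 3 kept ILCpro_KO and 5 kept ALP cells and so could change little. Nusap1 reversed in G1 cells, at 0.036, a value set in part by that choice of cells. No paired analysis was possible because each group is 1 library. No replicate could be left out for the same reason.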
